A study of Mus musculus with 6 samples.

Results

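Epidermal basal cells of pregnant mice at 16 days post-coitus (dpc), taken from both dorsal and ventral skin, were compared with basal cells of virgin ventral skin to find genes that differed in the same direction at both sites. The 4 arrays of 16 dpc cells were set against the 2 arrays of virgin ventral cells, and a gene was counted as common to both sites where all 4 lay on one side of both virgin arrays. Of 18193 genes on the array, 10993 were called present by the array software on both arrays of at least 1 group, and 2399 of these met the rule. Of the genes kept, 1470 were higher on all 4 arrays of 16 dpc cells (13.4%) and 929 were lower (8.45%).

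All 6 arrays hold cells of female C57BL/6 mice aged 10 weeks. The 3 groups are virgin ventral, 16 dpc dorsal and 16 dpc ventral skin, with 2 arrays each. Whole skin was held in cold trypsin overnight to take off the dermis, and cells that bound an antibody to α6 integrin and kept out propidium iodide, a stain of dead cells, were sorted. No label says that replicates were separate mice or that dorsal and ventral cells of one number came from different mice, so p-values measure only the spread between these samples. Virgin cells of dorsal skin were not analysed here, and in dorsal cells a difference of pregnancy and a difference of site cannot be told apart.

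The basal layer holds the dividing keratinocytes of the epidermis, which α6 integrin anchors to the basement membrane. In pregnancy, placental lactogens and prolactin act on a receptor that activates the kinase JAK2 and the transcription factor STAT5, which drives milk protein genes in the mammary gland and the feedback inhibitors Cish and Socs2 in many tissues. The epidermis also houses Langerhans cells, which present antigen, and dendritic epidermal T cells, and no leukocyte marker is named in the sort.

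The defining genes of basal cells were at high signal in all 3 groups. Krt14, a keratin of the basal layer, measured 25952 and 26256 in virgin cells, 22146 and 36626 in dorsal and 26244 and 31603 in ventral cells at 16 dpc. Itga6, the integrin used in the sort, had signals of 17403 and 16493 in virgin, 15364 and 19079 in 16 dpc dorsal and 15226 and 16846 in 16 dpc ventral cells. Both had overlapping groups, as did Krt5 and Col17a1. Of 16 basal keratinocyte genes kept, 0 passed the test described next, 1 was higher on all 4 arrays of 16 dpc cells (Itgb1, 6.25%, beside 13.4% of all genes) and 1 was lower (Bcl11b, 6.25%, beside 8.45%), and the median log2 fold change was -0.02, beside 0.04 over all genes. Itgb1 differed by -0.11 (log2) with the mean of all its probe sets. Without both replicate 2 arrays of 16 dpc cells 8 of the 16 were lower (50.0%, beside 19.3% of all genes).

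On each array 47.2% to 53.3% of probe sets were called present. The ratio of 3′ to 5′ signal of β-actin, which rises as RNA is degraded, was 4.47 and 3.90 on the replicate 2 arrays of 16 dpc dorsal and ventral cells and 1.78 to 2.46 on the other 4. The deposited signals share a trimmed mean of 500.0 on each array. Setting array medians equal instead moved the median log2 fold change of all genes to 0.23 and the share of higher genes among those that did not overlap from 61.3% to 90.4%, so every difference below is relative to the deposited scaling.

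A gene passed the test where its adjusted p, from limma with Benjamini-Hochberg adjustment over 10993 genes, was at most 0.05 and the groups did not overlap. At 16 dpc 8 genes rose (0.0728% of the genes) and 1 fell (0.00910%). Bex1, Thy1, Socs2, Csf1r, Ikzf4, Adam8, Deptor and Abcg2 rose, by 2.41-fold to 29.8-fold, and Klk8 fell by 2.93-fold. An unadjusted p under 0.05 was reached by 1227 genes. Between the sites at 16 dpc, 9 genes differed (0.0819%), none of them among the 9 that rose or fell. Of the 9 that rose or fell, 6 had an unadjusted p under 0.05 between sites by limma, and 8 differed more in ventral cells. With each site set alone against virgin cells, 8 of the 9 had an adjusted p of at most 0.05 in ventral cells and 0 in dorsal cells. Over all genes these counts were 22 and 0. A fit that blocks on replicate number raised the genes that passed to 26 higher (0.237%) and 12 lower (0.109%), the 9 genes among them. With the dorsal and ventral 16 dpc arrays averaged by replicate number instead, 3 of the 9 passed (Bex1, Thy1 and Klk8).

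The number of genes that passed depended on single arrays. Without virgin ventral replicate 1, 0 genes passed, and without virgin ventral replicate 2, 1 passed, which was Socs2. Without 16 dpc ventral replicate 1, 8 passed, 4 of them among the 9, and without 16 dpc ventral replicate 2, 3 passed (Bex1, Socs2 and Thy1). Without 16 dpc dorsal replicate 1, 73 passed, all 9 among them. Leaving out both replicate 2 arrays of 16 dpc cells, which had the high 3′ to 5′ ratios, left 1 array at each site. The spread between arrays then came from the virgin pair only. A count of genes is therefore not given, and the part of RNA quality was not tested. The median log2 fold change of all genes was then 0.0008, beside 0.04 with all arrays. In the fits above, the group that lost an array likewise added no spread, so their counts are not comparable with the 9. A probe set other than the one used was called present on at least 2 arrays for 4 of the 9 genes, and all 10 such probe sets differed in the same direction.

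**Figure D1:**
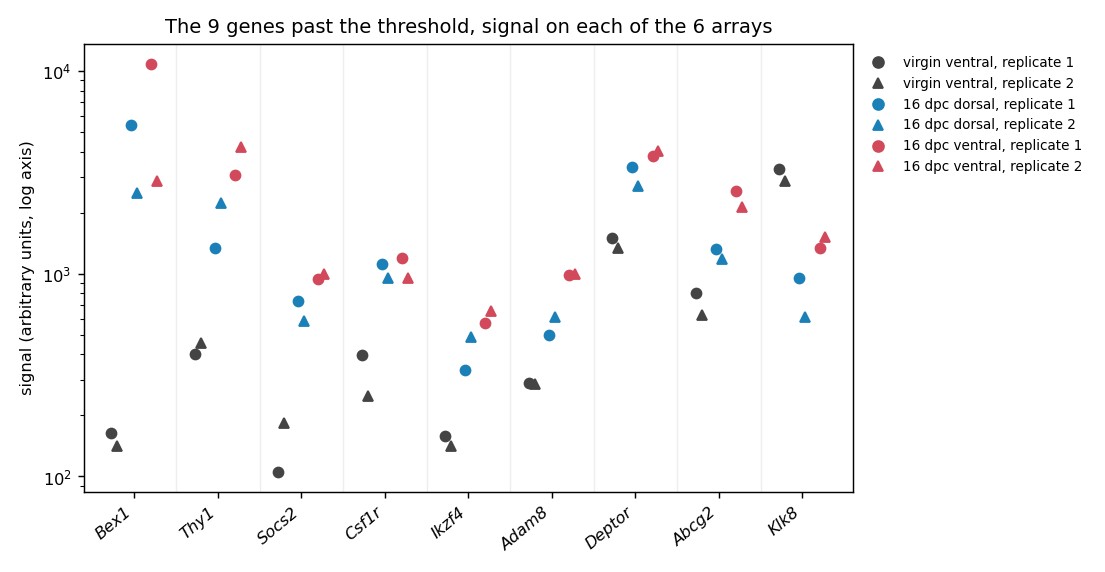
Signal of the 9 genes that passed the test on each of the 6 arrays (arbitrary units, log axis), with grey for virgin ventral, blue for 16 dpc dorsal and red for 16 dpc ventral cells, circles for replicate 1 and triangles for replicate 2. For every gene shown, all 4 points of 16 dpc cells lie on one side of both virgin points, and Bex1 lies furthest from them.

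Bex1, a small X-linked protein known mainly from brain, had the largest rise. Its signal was 164 and 141 on the virgin arrays, 5389 and 2515 on the dorsal and 10792 and 2880.2 on the ventral 16 dpc arrays. Both sites were far above the virgin arrays, and replicate 1 was the higher of each pair. It rose by 29.8-fold, a log2 difference of 4.90 ± 0.47 (SE, adjusted p = 0.0120 by limma). Dorsal cells differed from virgin cells by 4.60 and ventral cells by 5.20 (log2), and the pooled difference was 5.54 within replicate 1 and 4.26 within replicate 2. Of the 15 kept genes of the Bex family and imprinted growth genes, no other passed the test, and the related Bex2 had signals of 97.9 and 49.0 in virgin, 87.8 and 105 in 16 dpc dorsal and 86.5 and 102 in 16 dpc ventral cells, with overlapping groups.

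Socs2, an inhibitor of growth hormone and prolactin receptor signalling that is itself a target of STAT5, was 106 and 183 on the virgin arrays, 736 and 587 on the dorsal and 939 and 1003 on the ventral 16 dpc arrays. The lowest 16 dpc array lay 1.68 log2 units above the higher virgin array. It rose by 5.74-fold, a log2 difference of 2.52 ± 0.24 (SE, adjusted p = 0.0120 by limma). Dorsal cells differed from virgin cells by 2.24 and ventral cells by 2.80 (log2), and the pooled difference was 2.98 within replicate 1 and 2.07 within replicate 2. Of 4 further probe sets of Socs2, all were higher at 16 dpc and 3 did not overlap.

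Cish, the other feedback inhibitor that STAT5 induces, had signals of 1283 and 1563 in virgin, 2403 and 2830.0 in 16 dpc dorsal and 2598 and 3582 in 16 dpc ventral cells. All 4 arrays of 16 dpc cells lay above both virgin arrays. The log2 difference of 0.99 ± 0.17 (SE) did not pass the test (adjusted p = 0.108 by limma), and it did with the replicate block (adjusted p = 0.0283 by limma) but not with 16 dpc arrays averaged by number (adjusted p = 0.228 by limma).

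The other genes of prolactin and growth hormone signalling differed in both directions. Of 12 kept, 1 passed the test (Socs2), 4 were higher on all 4 arrays of 16 dpc cells (33.3%, beside 13.4% of all genes) and 2 were lower (16.7%, beside 8.45%). The list median of log2 fold changes was 0.15, beside 0.04 over all genes. Stat5a, which encodes one of the STAT5 proteins, was 979 and 895 on the virgin arrays, 1073 and 1028 on the dorsal and 1173 and 1510.3 on the ventral 16 dpc arrays. Its groups were narrowly apart. Pim1, a survival kinase, differed by -0.86 ± 0.21 and Socs3, an inhibitor of STAT3 signalling, by -0.45 ± 0.13 (log2, SE), both lower on all 4. Ghr and Jak2, the growth hormone receptor and its kinase, had overlapping groups.

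Of the casein genes, which encode milk proteins, 3 were higher on all 4 arrays of 16 dpc cells, at very unequal levels. Csn2, the gene of β-casein, measured 172 and 2.29 in virgin cells, 204 and 348 in dorsal and 6185 and 699 in ventral cells at 16 dpc. The virgin arrays were far apart, with a call of present on 1 of them, and virgin replicate 1 came close to the lowest dorsal array. A further probe set of Csn2, called present on 2 arrays, differed by 2.05 (log2) with overlapping groups. The gene did not pass the test (adjusted p = 0.292 by limma), and its log2 difference was 8.34 without virgin replicate 1 and 2.12 without virgin replicate 2, so that 1 virgin array set its size.

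Csn1s2a, another casein, had signals of 43.3 and 2.73 in virgin, 133 and 161 in 16 dpc dorsal and 4070.1 and 397 in 16 dpc ventral cells. It was called present on no virgin array and was at least 26.0-fold higher at 16 dpc (adjusted p = 0.155 by limma, 0.0314 with the replicate block and 0.278 with 16 dpc arrays averaged by number). For such a bound, a virgin signal under the lowest signal called present on its array was raised to that signal. For genes lower at 16 dpc, the signals of 16 dpc cells were raised instead. For Csn1s1, Cd207, C1qa, Cck, Irs2, Dcn and Arg1 no signal was raised, so the bound equals the fold difference between the groups. There "at least" refers to the absent calls only and is no minimum over the spread between arrays. The bound was 68.0 without virgin replicate 1, 9.94 without virgin replicate 2, 14.5 without ventral replicate 1 and 46.5 without ventral replicate 2. Csn1s1, the gene of αS1-casein, was 64.6 and 26.5 on the virgin arrays, 94.2 and 125 on the dorsal and 1031 and 186 on the ventral 16 dpc arrays. It was likewise at least 5.27-fold higher (adjusted p = 0.272 by limma), a bound that was 8.23 and 3.38 without virgin replicate 1 or 2 and 3.44 and 8.09 without ventral replicate 1 or 2. Ventral replicate 1 was the highest array for these 3 caseins, and ventral replicate 2 the next. Csn3, the gene of κ-casein, measured 79.4 and 129 in virgin cells, 26.3 and 39.9 in dorsal and 646 and 112 in ventral cells at 16 dpc, with dorsal cells below both virgin arrays.

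The upstream sequences of Csn2 and Csn1s1 are shown because both hold, close to the start, the letters of the palindrome that STAT5 binds in casein genes. They are the 250 bases before each start in RefSeq (GRCm38.p6), for Csn2 on the minus strand (chr5:87699426-87699675) and for Csn1s1 on the plus strand (chr5:87665958-87666207), and capitals mark TTCNNNGAA.
Csn2: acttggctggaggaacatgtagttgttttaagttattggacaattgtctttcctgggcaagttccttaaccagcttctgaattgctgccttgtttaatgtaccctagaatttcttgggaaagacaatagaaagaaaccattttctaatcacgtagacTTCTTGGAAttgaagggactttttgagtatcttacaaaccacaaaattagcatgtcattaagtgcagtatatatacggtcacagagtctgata
Csn1s1: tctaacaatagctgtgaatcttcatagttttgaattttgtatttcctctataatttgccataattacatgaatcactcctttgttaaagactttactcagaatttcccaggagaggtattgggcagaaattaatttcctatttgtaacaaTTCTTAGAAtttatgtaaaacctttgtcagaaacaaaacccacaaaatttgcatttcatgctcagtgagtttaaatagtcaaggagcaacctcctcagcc
The match began 93 bases before the start of Csn2 and 100 bases before that of Csn1s1, and neither Csn1s2a nor Cish held one in this window. Of 32851 promoter windows of this length, 7.02% held these letters on either strand. Of the 9 genes that rose or fell, 4 had promoters in the table (Abcg2, Adam8, Bex1 and Klk8, with 6 windows), and 0 windows held it. None of the 6 held the glucocorticoid and progesterone receptor palindrome, AGAACA and TGTTCT 3 bases apart (0.00913% of all windows), the oestrogen receptor palindrome, GGTCA and TGACC 3 bases apart (0.0639%), or the E box CACGTG (6.02%) either. A match is a run of letters and does not show binding.

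The mammary list differed in both directions. Of 13 kept of 20 on the array, 0 passed the test, 4 were higher on all 4 arrays of 16 dpc cells (30.8%, beside 13.4%) and 4 were lower (30.8%, beside 8.45%). The higher genes were Csn2, Csn1s1, Csn1s2a and Xdh, xanthine dehydrogenase, which coats milk fat globules and breaks down purines, and which had signals of 958 and 808 in virgin, 1687 and 1283 in 16 dpc dorsal and 2346 and 1831 in 16 dpc ventral cells. The lower genes were keratins of simple epithelia, Krt7, Krt8, Krt18 and Krt19. Csn1s1 and Csn1s2a, present on no virgin array, and Krt19, present on no 16 dpc array, were kept through the group where they were high. Csn2, which was not present on both virgin arrays, was likewise kept through 16 dpc cells. Of the 4 list genes present on all 6 arrays 1 was higher (25.0%, beside 14.0% of all genes) and 1 lower (25.0%, beside 7.92%). The summed signal of the list was 5705 and 8559 on the virgin arrays, 6991 and 6928 on the dorsal and 20355 and 7149 on the ventral 16 dpc arrays, so that one ventral array stood apart. How far mammary cells entered the sort was not tested.

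Krt18 was 161 and 413 on the virgin arrays, 17.8 and 24.2 on the dorsal and 94.3 and 47.6 on the ventral 16 dpc arrays. Krt8, its partner, measured 219.6 and 474 in virgin cells, 47.6 and 34.3 in dorsal and 104 and 9.98 in ventral cells at 16 dpc. For both, virgin replicate 2 was the highest array and no 16 dpc array reached either virgin array. Krt19 had signals of 110.1 and 282 in virgin, 5.29 and 2.82 in 16 dpc dorsal and 46.2 and 9.71 in 16 dpc ventral cells, was called present on no 16 dpc array and was at least 12.9-fold lower (adjusted p = 0.108 by limma), a bound that was 20.6 and 8.04 without virgin replicate 1 or 2. None of the 3 passed the test. Krt8 and Krt18 also mark Merkel cells, the touch receptors of the epidermis. Of the Merkel cell and nerve list 4 of 12 genes on the array were kept, and 3 were lower on all 4 arrays (75.0%, beside 8.45% of all genes). These were Syt1 and the same Krt8 and Krt18 that the mammary list counts. Of the 2 genes of the Merkel cell and nerve list present on all 6 arrays 1 was lower (50.0%, beside 7.92% of all genes).

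**Figure D2:**
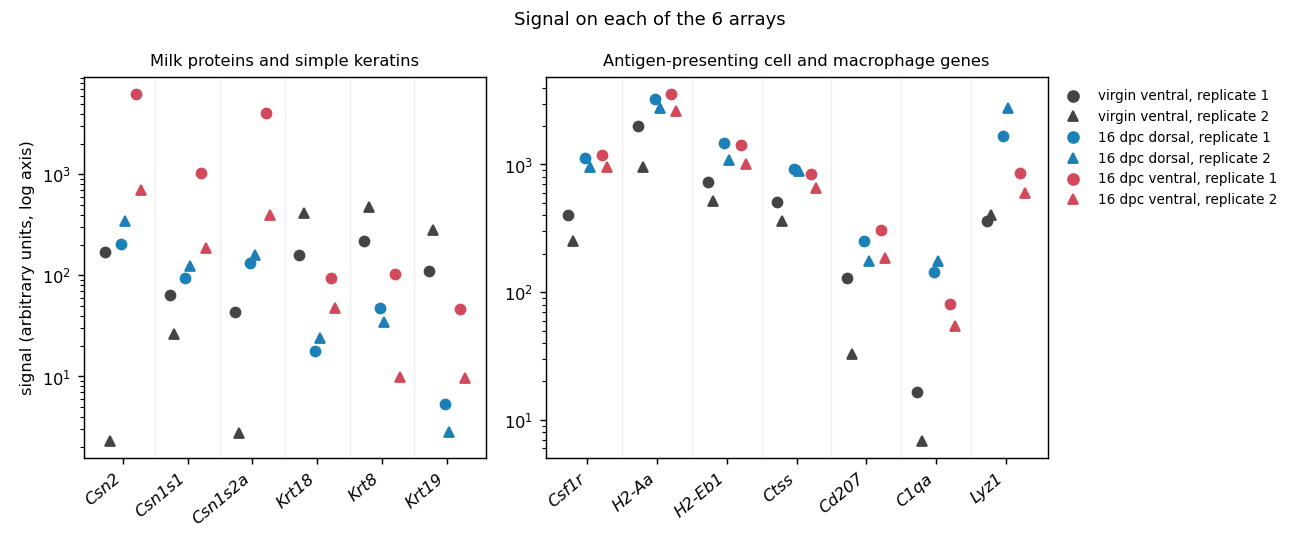
Signal on each of the 6 arrays (arbitrary units, log axes) of 3 casein and 3 simple keratin genes (left) and of 7 further genes (right). The 7 are Lyz1 and genes known from antigen-presenting cells and other leukocytes. Colours and symbols are those of the plot of the 9 genes. The caseins lie above both virgin points with ventral replicate 1 highest, the keratins lie below both, and the 7 genes on the right are higher on all 4 arrays of 16 dpc cells.

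Genes of antigen-presenting cells had the largest share on the higher side among lists of at least 10 kept genes. The lists were chosen with earlier results of these data known, so ranks among them are descriptions only. Of 18 kept of 23 on the array, 13 were higher on all 4 arrays of 16 dpc cells (72.2%, beside 13.4% of all genes), 0 were lower and 1, Csf1r, passed the test. The median log2 fold change was 0.74, beside 0.04 over all genes, with 0.80 for dorsal and 0.69 for ventral cells over the same virgin arrays. Under the other settings 9 (of 14 kept) to 15 (of 18 kept) were higher and 0 or 1 lower. Over all genes these settings gave 10.3% to 30.9% higher and 2.89% to 22.9% lower. Some members, Cd207 among them, were not present on both virgin arrays and were kept through 16 dpc cells. Of the 14 list genes present on all 6 arrays 9 were higher (64.3%, beside 14.0% of all genes) and 0 lower.

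Csf1r, the receptor of CSF1 and IL-34 on which Langerhans cells depend, was 399 and 249.7 on the virgin arrays, 1114 and 956 on the dorsal and 1189.6 and 958 on the ventral 16 dpc arrays. Dorsal and ventral cells were alike in level and all were above the virgin arrays. It rose by 3.32-fold, a log2 difference of 1.73 ± 0.22 (SE, adjusted p = 0.0375 by limma). Dorsal cells differed from virgin cells by 1.71 and ventral cells by 1.76 (log2), and the pooled difference was 1.53 within replicate 1 and 1.94 within replicate 2. A further probe set, called present on 2 arrays, differed by 0.38 (log2) with overlapping groups.

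Among MHC class II genes, whose products display peptides to T cells, H2-Aa had signals of 2010.5 and 953 in virgin, 3236 and 2757 in 16 dpc dorsal and 3531 and 2635 in 16 dpc ventral cells. H2-Eb1 was 726 and 513 on the virgin arrays, 1477 and 1091 on the dorsal and 1420.0 and 1005 on the ventral 16 dpc arrays. All 4 arrays of 16 dpc cells were higher for both genes, and virgin replicate 2 was the lowest. H2-Eb1 did not pass the test (adjusted p = 0.171 by limma) and did with the replicate block (adjusted p = 0.0289 by limma) but not with 16 dpc arrays averaged by number (adjusted p = 0.329 by limma). Cd74, the class II chaperone, differed by 0.44 ± 0.19 (log2, SE) and was also higher on all 4.

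Cd207, the langerin that defines Langerhans cells, measured 129 and 33.1 in virgin cells, 249.8 and 176 in dorsal and 304 and 186 in ventral cells at 16 dpc. It was called present on 3 of the 4 arrays of 16 dpc cells and on no virgin array, and was at least 3.41-fold higher (adjusted p = 0.305 by limma), a bound that was 6.75 and 1.73 without virgin replicate 1 or 2. Ctss, the protease that trims Cd74, differed by 0.93 ± 0.20 and Laptm5, a lysosomal protein of leukocytes, by 1.42 ± 0.28 (log2, SE), both higher on all 4. Laptm5 differed by -0.05 without probe sets shared between genes. Epcam, which Langerhans cells share with other epithelial cells, had signals of 3090.3 and 5138 in virgin, 4247 and 4294 in 16 dpc dorsal and 3480.1 and 2908 in 16 dpc ventral cells, with overlapping groups.

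The summed signal of the antigen-presenting cell list was 9227 and 9654 on the virgin arrays, 15729 and 14570 on the dorsal and 15507 and 11291 on the ventral 16 dpc arrays. Its part in the rise of Csf1r was not tested. In bulk samples the number of cells of a type and the RNA per cell cannot be told apart.

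The upstream sequences of H2-Aa and H2-Eb1 are shown because both hold, close to the start, the letters of the Y box known from class II promoters. They are the 250 bases before each start in RefSeq (GRCm38.p6), for H2-Aa on the minus strand (chr17:34287824-34288073) and for H2-Eb1 on the plus strand (chr17:34305617-34305866), and capitals mark CTGATTGG.
H2-Aa: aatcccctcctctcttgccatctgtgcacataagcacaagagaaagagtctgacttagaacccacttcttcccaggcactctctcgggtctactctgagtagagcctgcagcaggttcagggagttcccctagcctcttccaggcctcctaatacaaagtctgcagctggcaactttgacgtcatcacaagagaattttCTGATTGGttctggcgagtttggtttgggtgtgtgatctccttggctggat
H2-Eb1: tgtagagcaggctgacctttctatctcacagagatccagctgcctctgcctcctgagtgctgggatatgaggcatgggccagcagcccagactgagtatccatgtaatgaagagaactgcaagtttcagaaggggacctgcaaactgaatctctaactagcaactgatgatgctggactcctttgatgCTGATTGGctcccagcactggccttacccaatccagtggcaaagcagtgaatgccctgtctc
The match began 51 bases before the start of H2-Aa and 62 bases before that of H2-Eb1, and 3.83% of the 32851 windows held it on either strand. Both windows of H2-DMa, another class II gene, held no match. This motif was searched after the genes had been seen to differ, and the windows of H2-Aa and H2-Eb1 held none of the other motifs named above.

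Lyz1, C1qa and Lcp1 were higher on all 4 arrays of 16 dpc cells and did not pass the test. Lyz1, a lysozyme, was 358 and 404 on the virgin arrays, 1677 and 2774 on the dorsal and 859.7 and 599.7 on the ventral 16 dpc arrays. It was highest in dorsal cells (adjusted p = 0.0521 by limma). A further probe set of Lyz1, called present on all 6 arrays, differed by 1.06 (log2) with overlapping groups. C1qa, a chain of complement C1q, measured 16.55 and 6.84 in virgin cells, 145 and 176 in dorsal and 80.4 and 54.6 in ventral cells at 16 dpc. It was called present on 2 arrays of 16 dpc cells and on no virgin array, and was at least 9.67-fold higher (adjusted p = 0.0556 by limma), a bound that was 15.0 and 6.21 without virgin replicate 1 or 2. Lcp1, an actin bundler of leukocytes, had signals of 71.6 and 78.1 in virgin, 246 and 232 in 16 dpc dorsal and 279 and 207 in 16 dpc ventral cells (adjusted p = 0.0589 by limma). C1qb and Pf4, chosen after their values were seen, differed by 1.84 ± 0.33 and 2.17 ± 0.40 (log2, SE) and were higher on all 4.

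Thy1, a surface glycoprotein of T cells, fibroblasts and other cells, was 402 and 457 on the virgin arrays, 1347 and 2235 on the dorsal and 3086 and 4216 on the ventral 16 dpc arrays. The 3 groups did not overlap, with dorsal cells between virgin and ventral cells. It rose by 5.84-fold, a log2 difference of 2.55 ± 0.22 (SE, adjusted p = 0.0120 by limma). Dorsal cells differed from virgin cells by 2.02 and ventral cells by 3.07 (log2), and the pooled difference was 2.34 within replicate 1 and 2.75 within replicate 2. The difference between sites did not pass the test (adjusted p = 0.421 by limma).

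Thy1 stands in the T cell and the fibroblast lists, which were measured beside it. Of the T cell list 5 of 18 genes on the array were kept, 2 were higher on all 4 arrays of 16 dpc cells (Thy1 itself and Ptprc, beside 13.4% of all genes) and 0 were lower. Without probe sets shared between genes 1 of 4 was higher (25.0%, beside 13.1% of all genes). Ptprc, the leukocyte common antigen, had signals of 124 and 91.2 in virgin, 202 and 238 in 16 dpc dorsal and 205 and 156 in 16 dpc ventral cells, and differed by -0.50 (log2) with the mean of all its probe sets. Their summed signal, Thy1 included, was 1324 and 2015 on the virgin arrays, 2490 and 4087 on the dorsal and 4122 and 4911 on the ventral 16 dpc arrays. Cd3g, a chain of the T cell receptor complex, was 117 and 80.9 on the virgin arrays, 112 and 188 on the dorsal and 111 and 102 on the ventral 16 dpc arrays, with overlapping groups. Of 9 kept fibroblast genes 3 were higher on all 4, Thy1 itself among them (33.3%, beside 13.4%), and 1 was lower (11.1%, beside 8.45%). The lower gene was Dcn, the matrix proteoglycan decorin, which measured 122 and 196 in virgin cells, 12.0 and 42.3 in dorsal and 39.1 and 33.0 in ventral cells at 16 dpc, was called present on no 16 dpc array and was at least 5.44-fold lower (adjusted p = 0.189 by limma). The part of these cells in the rise of Thy1 was not tested.

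Ikzf4, an Ikaros-family transcription factor, had signals of 159 and 142 in virgin, 334 and 489.7 in 16 dpc dorsal and 573 and 653 in 16 dpc ventral cells. Ventral cells were the highest, and the groups did not overlap. It rose by 3.32-fold, a log2 difference of 1.73 ± 0.22 (SE, adjusted p = 0.0375 by limma), with a call of present on 1 virgin array. The log2 difference was 1.43 for dorsal and 2.03 for ventral cells over the same virgin arrays, and 1.46 within replicate 1 and 2.0 within replicate 2. A further probe set called present on all 6 arrays differed by 1.55 (log2) and did not overlap. Rhbdl3, a rhomboid-like membrane protein, measured 612 and 537 in virgin cells, 968 and 1352 in dorsal and 1537 and 1518 in ventral cells at 16 dpc (adjusted p = 0.0544 by limma).

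Abcg2, an efflux pump found in many stem cells, had signals of 806 and 625 in virgin, 1319 and 1181 in 16 dpc dorsal and 2548 and 2141 in 16 dpc ventral cells. It rose by 2.41-fold, a log2 difference of 1.27 ± 0.16 (SE, adjusted p = 0.0375 by limma). The log2 difference was 0.81 for dorsal and 1.72 for ventral cells over the same virgin arrays, and 1.19 within replicate 1 and 1.35 within replicate 2. The groups were apart, with dorsal cells nearer to virgin cells than ventral cells were, and the difference between sites did not pass the test (adjusted p = 0.286 by limma). Of 17 kept ABC transporters no other passed the test, 0 others were higher on all 4 arrays of 16 dpc cells and 4 were lower (23.5%, beside 8.45%). With array medians set equal, 3 of the 17 were higher (17.6%, beside 27.2% of all genes) and 2 lower (11.8%, beside 2.89%).

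**Figure D3:**
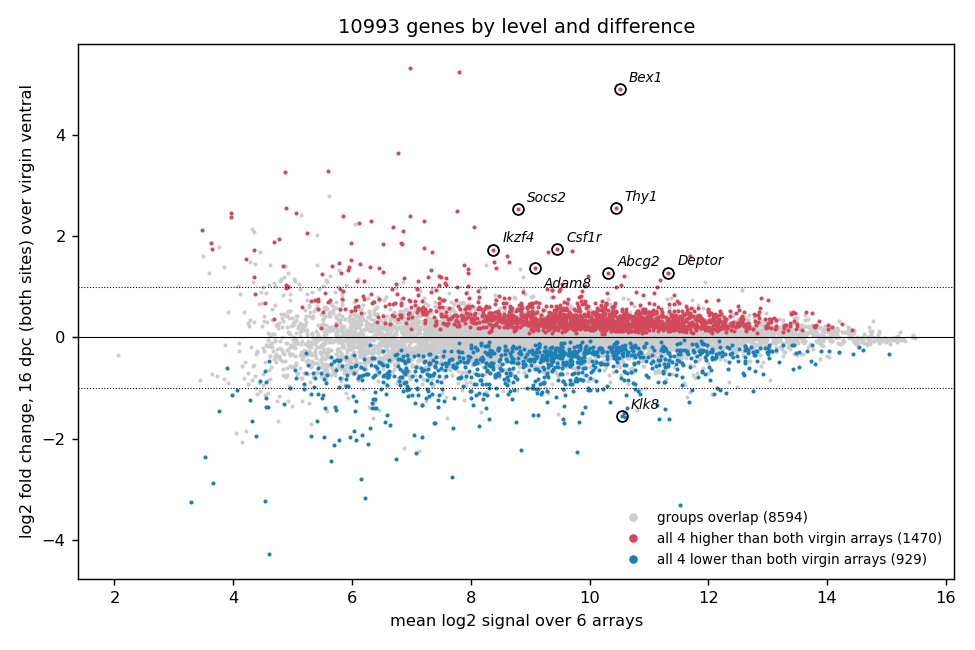
Log2 fold change of 16 dpc cells of both sites over virgin ventral cells against mean log2 signal over the 6 arrays, for 10993 genes, with red for the 1470 genes higher on all 4 arrays of 16 dpc cells, blue for the 929 lower on all 4 and grey for those that overlap. Black circles mark the 9 genes that passed the test, and dotted lines mark a 2-fold difference.

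Deptor, which binds and inhibits the kinase mTOR, measured 1508 and 1339 in virgin cells, 3354 and 2718 in dorsal and 3795 and 4045 in ventral cells at 16 dpc. It rose by 2.42-fold, a log2 difference of 1.28 ± 0.14 (SE, adjusted p = 0.0271 by limma). By site the log2 difference was 1.09 (dorsal) and 1.46 (ventral), and by replicate number it was 1.24 (replicate 1) and 1.31 (replicate 2). Each of its 4 further probe sets was higher on all 4 arrays of 16 dpc cells. Of 23 kept regulators of PI3K and mTOR no other passed the test, 2 were higher on all 4 (8.70%, beside 13.4%) and 7 were lower (30.4%, beside 8.45%), with a median log2 fold change of -0.07. With array medians set equal, 3 were higher and 4 lower, beside 27.2% and 2.89% of all genes, and the median was 0.12.

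Lower genes of these growth pathways did not pass the test. Nuak1, a kinase related to AMPK, was 2792 and 3098 on the virgin arrays, 1574 and 1396 on the dorsal and 1484 and 1238 on the ventral 16 dpc arrays (adjusted p = 0.0521 by limma). Pik3ip1, an inhibitor of PI3K, measured 1209.6 and 1336 in virgin cells, 982 and 880.2 in dorsal and 588 and 548 in ventral cells at 16 dpc (adjusted p = 0.108 by limma). Ddit4, which restrains mTOR under stress, differed by -0.46 ± 0.12 (log2, SE, adjusted p = 0.280 by limma). All 3 were lower on all 4 arrays of 16 dpc cells. Of 13 kept IGF and insulin genes 0 passed the test, 0 were higher and 4 were lower (30.8%, beside 8.45%). With array medians set equal, 0 were higher and 2 lower (15.4%, beside 2.89% of all genes). Igf1r, the receptor of IGF1, had signals of 2372 and 2133 in virgin, 1231 and 1309.8 in 16 dpc dorsal and 1617 and 964 in 16 dpc ventral cells (adjusted p = 0.216 by limma). Irs2, which couples that receptor to PI3K, was 327 and 322 on the virgin arrays, 172 and 64.3 on the dorsal and 147 and 8.72 on the ventral 16 dpc arrays, was called present on no 16 dpc array and was at least 5.28-fold lower (adjusted p = 0.401 by limma), a bound that was 10.7 and 2.61 without ventral replicate 1 or 2.

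Adam8, a metalloprotease of the cell surface, measured 289 and 284 in virgin cells, 497 and 612 in dorsal and 986 and 998 in ventral cells at 16 dpc. It rose by 2.58-fold, a log2 difference of 1.37 ± 0.17 (SE, adjusted p = 0.0375 by limma). By site the log2 difference was 0.94 (dorsal) and 1.79 (ventral), and by replicate number it was 1.28 (replicate 1) and 1.46 (replicate 2). Ventral cells were the highest, and the difference between sites did not pass the test (adjusted p = 0.390 by limma). In the list of EGF receptor ligands, receptors and sheddases, where it was placed, no other of 16 kept genes passed, 2 were higher on all 4 arrays of 16 dpc cells (Adam8 and Tgfa, 12.5%, beside 13.4%) and 6 were lower (37.5%, beside 8.45%). With array medians set equal, 5 were higher (31.2%, beside 27.2% of all genes) and 4 lower (25.0%, beside 2.89%). Hbegf, an EGF receptor ligand, was 367 and 283 on the virgin arrays, 149 and 48.5 on the dorsal and 137 and 51.9 on the ventral 16 dpc arrays. Erbb3, a receptor of neuregulins, measured 6865 and 6808 in virgin cells, 4988 and 4559.8 in dorsal and 4448 and 3871 in ventral cells at 16 dpc. Both were lower on all 4 (adjusted p = 0.274 and 0.155 by limma). Over all settings the log2 difference was -2.33 to -1.17 for Hbegf and -0.67 to -0.02 for Erbb3.

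Klk8, a kallikrein protease of the outer epidermis that acts in desquamation, had signals of 3269.8 and 2857 in virgin, 957 and 609 in 16 dpc dorsal and 1342 and 1512 in 16 dpc ventral cells. It fell by 2.93-fold, a log2 difference of -1.55 ± 0.19 (SE, adjusted p = 0.0375 by limma). The log2 difference was -2.0 for dorsal and -1.10 for ventral cells over the same virgin arrays, and -1.53 within replicate 1 and -1.57 within replicate 2. Dorsal cells were the lowest, and the difference between sites did not pass the test (adjusted p = 0.436 by limma). Klk7, another kallikrein of desquamation, measured 1928 and 3330.5 in virgin cells, 863 and 297 in dorsal and 657 and 452 in ventral cells at 16 dpc, and Klk5, which activates it, had signals of 1381 and 1833 in virgin, 1090.2 and 615 in 16 dpc dorsal and 798 and 739 in 16 dpc ventral cells. Both were lower on all 4 arrays of 16 dpc cells but did not pass the test (adjusted p = 0.108 and 0.209 by limma).

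Of 26 kept serpins and proteases of keratinocytes, 1 rose (Adam8), 1 fell (Klk8), 3 were higher on all 4 arrays of 16 dpc cells (11.5%, beside 13.4%) and 6 were lower (23.1%, beside 8.45%). With array medians set equal, 6 were higher (23.1%, beside 27.2% of all genes) and 3 lower (11.5%, beside 2.89%). Serpinb12, a protease inhibitor, was 71.8 and 132 on the virgin arrays, 414 and 219 on the dorsal and 735 and 563 on the ventral 16 dpc arrays (adjusted p = 0.0628 by limma). Among granular and cornified genes 1 of 24 was higher and 5 were lower (20.8%, beside 8.45%), among them Lor, which encodes loricrin of the cornified envelope, and Asprv1, a protease that processes filaggrin, with log2 differences of -0.69 ± 0.19 and -0.87 ± 0.19 (SE). Of 14 spinous genes 5 were lower (35.7%, beside 8.45%) and 0 were higher. With array medians set equal, 0 were lower (beside 2.89% of all genes) and 0 higher (beside 27.2%). No gene of the granular or spinous lists passed the test.

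Other lower genes of at least 2-fold did not pass the test either. Scd2, a fatty acid desaturase, measured 1015 and 1238 in virgin cells, 632 and 505 in dorsal and 409 and 355 in ventral cells at 16 dpc (adjusted p = 0.0544 by limma). Pkib, an inhibitor of protein kinase A, had signals of 2648 and 3608 in virgin, 2215 and 2017 in 16 dpc dorsal and 1020.2 and 912 in 16 dpc ventral cells (adjusted p = 0.0544 by limma). Ventral cells were the lower for both. Kbtbd11 differed by -1.39 ± 0.22, Cldn23, a claudin of tight junctions, by -1.69 ± 0.30, Kcnj16, a potassium channel, by -1.06 ± 0.19 and Trib1, a pseudokinase, by -1.11 ± 0.21 (log2, SE). All were lower on all 4 arrays of 16 dpc cells. Further probe sets of Pkib and Kcnj16 were lower without overlap, and those of Scd2 (-0.96, log2) and Trib1 (-0.06) had overlapping groups. Over all settings the log2 difference of Kbtbd11 was -1.58 to -0.08.

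Of 28 kept Wnt ligands, receptors and secreted regulators 0 passed the test, 0 were higher on all 4 arrays of 16 dpc cells and 5 were lower (17.9%, beside 8.45%). With array medians set equal, 3 were higher (10.7%, beside 27.2% of all genes) and 3 lower (10.7%, beside 2.89%). Rspo3, an R-spondin that amplifies Wnt signals, was 1086 and 877 on the virgin arrays, 787 and 778 on the dorsal and 241 and 276 on the ventral 16 dpc arrays (adjusted p = 0.0628 by limma). Its dorsal arrays lay just below the virgin arrays and its ventral arrays far below them, and the direction turned to 0.82 (log2) with the mean of all its probe sets. Wnt5a, a non-canonical Wnt, measured 879 and 857 in virgin cells, 451 and 425 in dorsal and 536 and 621 in ventral cells at 16 dpc. Wnt16 differed by -2.76 ± 0.67 (log2, SE), with -1.44 within replicate 1 and -4.07 within replicate 2.

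**Figure D4:**
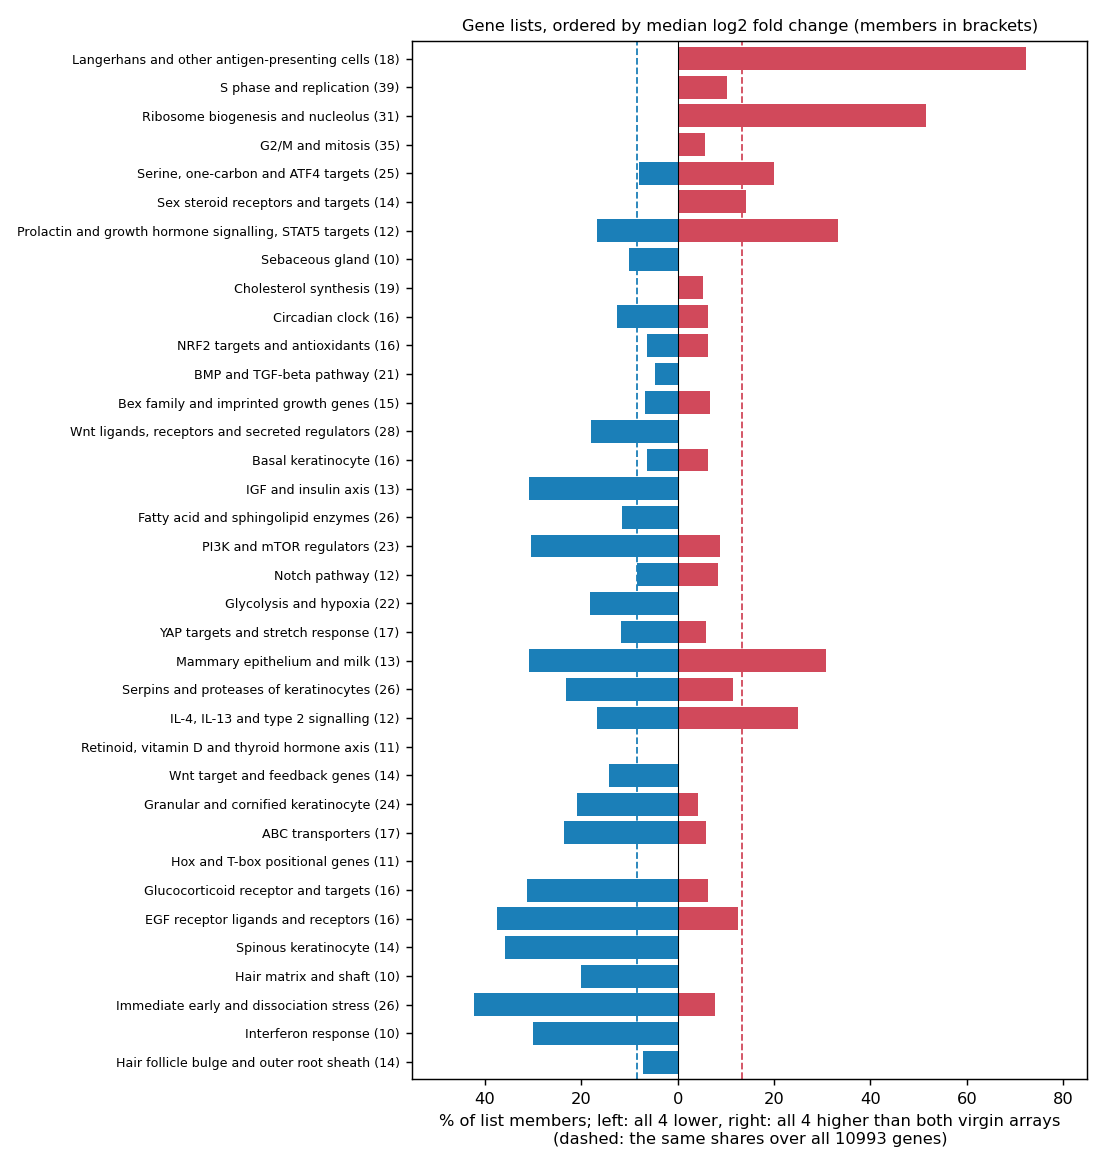
Share of the kept members of each gene list with at least 10 kept genes (number in brackets) that were higher on all 4 arrays of 16 dpc cells (red, right) or lower on all 4 (blue, left), ordered by median log2 fold change. Dashed lines give the same shares over all 10993 genes, 13.4% and 8.45%, and antigen-presenting cells (72.2%) and ribosome biogenesis (51.6%) reach furthest to the right.

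Genes of ribosome biogenesis, which build ribosomes in the nucleolus, were higher by small amounts. Of 31 kept, 0 passed the test, 16 were higher on all 4 arrays of 16 dpc cells (51.6%, beside 13.4%) and 0 were lower, and the median log2 fold change was 0.39, beside 0.04 over all genes. Under the other settings 16 to 28 were higher and 0 or 1 lower. Over all genes these settings gave 10.3% to 30.9% higher and 2.89% to 22.9% lower. Nolc1, a nucleolar phosphoprotein, had signals of 953 and 791 in virgin, 1339 and 1162 in 16 dpc dorsal and 1434 and 1488 in 16 dpc ventral cells. Gnl3, nucleostemin, was 2317 and 2179 on the virgin arrays, 2953 and 3182 on the dorsal and 3225 and 3635 on the ventral 16 dpc arrays. Their log2 differences were 0.64 ± 0.15 and 0.53 ± 0.13 (SE). Nop56, a core protein of box C/D ribonucleoproteins, differed by 0.68 ± 0.18, and by -0.03 without probe sets shared between genes.

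Genes of DNA replication and mitosis did not pass the test, and their counts depended on single arrays. Of 39 kept S phase genes 38 had a higher mean at 16 dpc (97.4%, beside 56.9% of all genes), with 4 higher on all 4 arrays (10.3%, beside 13.4%) and 0 lower, and the median log2 fold change over virgin cells was 0.16 for dorsal and 0.67 for ventral cells. Of 35 kept G2/M genes 28 had a higher mean (80.0%, beside 56.9%), 2 were higher on all 4 (5.71%, beside 13.4%) and 0 were lower, with medians of -0.21 for dorsal and 0.82 for ventral cells. Without virgin replicate 1, 9 G2/M genes had a higher mean, beside 5881 of all 10993 genes, and the list median of log2 fold changes was -0.23. Of the G2/M genes 5 were then lower on all 4 (14.3%, beside 22.9% of all genes). Without virgin replicate 2, 27 of the G2/M genes were higher on all 4 (77.1%, beside 26.2% of all genes in that setting), their median was 0.75, and 27 of the S phase genes were higher on all 4 (69.2%). Without 16 dpc dorsal replicate 1, 23 of the S phase genes were higher on all 3 remaining arrays (59.0%, beside 18.5% of all genes). Of the G2/M genes 4 were (11.4%). Mcm6, a subunit of the replicative helicase, measured 3363 and 3360.4 in virgin cells, 3450.2 and 4896 in dorsal and 4881 and 5954 in ventral cells at 16 dpc. Mad2l1, of the spindle checkpoint, had signals of 362 and 617 in virgin, 723 and 672 in 16 dpc dorsal and 903 and 1403 in 16 dpc ventral cells. Phgdh, the first enzyme of serine synthesis, was 5735 and 4933 on the virgin arrays, 7370.5 and 7119.5 on the dorsal and 11192 and 11406 on the ventral 16 dpc arrays, with ventral cells the highest.

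Immediate early genes, which are also induced while tissue is taken apart, were the list of this size with the largest share on the lower side. Of 26 kept, 0 passed the test, 11 were lower on all 4 arrays of 16 dpc cells (42.3%, beside 8.45%) and 2 were higher (7.69%, beside 13.4%). With array medians set equal, 6 were lower (23.1%, beside 2.89% of all genes) and 2 higher (7.69%, beside 27.2%). The median log2 fold change was -0.41. Fosb, a subunit of AP-1, measured 411 and 323 in virgin cells, 89.1 and 147 in dorsal and 59.6 and 208 in ventral cells at 16 dpc. Atf3, a stress-induced transcription factor, had signals of 1213 and 1170.4 in virgin, 471 and 638 in 16 dpc dorsal and 316 and 791 in 16 dpc ventral cells. Dusp1, a phosphatase of MAP kinases, was 10339 and 12054 on the virgin arrays, 3999 and 6364 on the dorsal and 3824 and 8613 on the ventral 16 dpc arrays. Ventral replicate 1 was the lowest array for all 3 and ventral replicate 2 the highest of the 16 dpc arrays, so the replicates of one site were far apart.

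**Figure D5:**
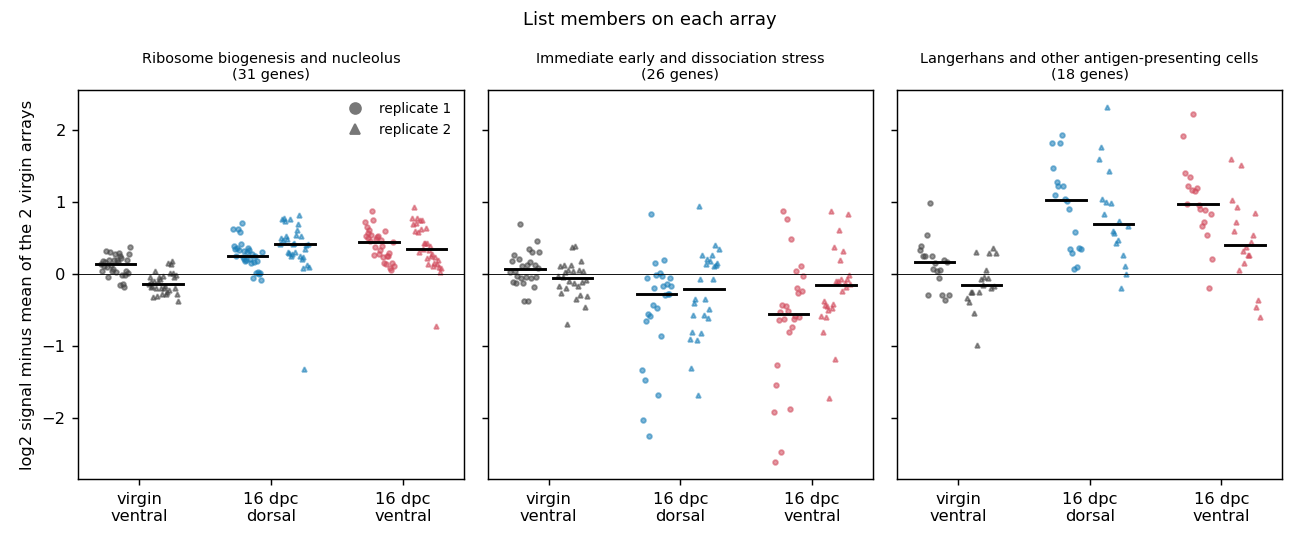
Log2 signal minus the mean of the 2 virgin arrays for each kept gene of 3 lists (31, 26 and 18 genes) on each of the 6 arrays, with bars at the median of the list on that array. The medians of the 16 dpc arrays lie between 0.25 and 0.44 for ribosome biogenesis, between -0.56 and -0.16 for immediate early genes and between 0.41 and 1.02 for antigen-presenting cells.

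Genes of other hormone receptors were mixed, as were those of prolactin and growth hormone signalling. Of 16 kept glucocorticoid receptor targets 0 passed the test, 1 was higher on all 4 arrays of 16 dpc cells (6.25%, beside 13.4%) and 5 were lower (31.2%, beside 8.45%). With array medians set equal, 2 were higher (12.5%, beside 27.2% of all genes) and 3 lower (18.8%, beside 2.89%). The higher gene, Fkbp5, a co-chaperone of that receptor, measured 3087 and 801 in virgin cells, 5468 and 3978 in dorsal and 5403 and 4562 in ventral cells at 16 dpc. The virgin arrays were far apart, and the log2 difference was 0.82 within replicate 1 and 2.41 within replicate 2. Pdk4, a kinase that spares glucose, had signals of 226 and 562 in virgin, 201 and 94.6 in 16 dpc dorsal and 85.8 and 43.3 in 16 dpc ventral cells. Esr1, the oestrogen receptor α, was 393 and 439 on the virgin arrays, 567 and 528 on the dorsal and 829.8 and 800.0 on the ventral 16 dpc arrays, a log2 difference of 0.69 ± 0.16 (SE) that was -0.08 with the mean of all probe sets.

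Of 12 kept genes of IL-4, IL-13 and type 2 signalling 0 passed the test, 3 were higher on all 4 arrays of 16 dpc cells (25.0%, beside 13.4%) and 2 were lower (16.7%, beside 8.45%). Il4ra, the receptor chain shared by both cytokines, measured 504 and 419 in virgin cells, 647 and 863 in dorsal and 1143 and 1276 in ventral cells at 16 dpc (adjusted p = 0.105 by limma). Arg1, arginase, had signals of 169 and 289 in virgin, 78.6 and 49.6 in 16 dpc dorsal and 83.3 and 61.0 in 16 dpc ventral cells, was called present on no 16 dpc array and was at least 3.31-fold lower (adjusted p = 0.155 by limma).

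Of the genes that differed by at least 2-fold without overlap, 84 were higher (0.764% of all genes) and 151 lower (1.37%), and 30 of the higher genes were called present on no virgin array. Cck, the hormone cholecystokinin, was 63.7 and 6.52 on the virgin arrays, 371 and 191 on the dorsal and 368 and 161 on the ventral 16 dpc arrays, and was at least 12.5-fold higher (adjusted p = 0.175 by limma), a bound that was 39.1 and 4.00 without virgin replicate 1 or 2. Foxa1, a forkhead transcription factor, measured 77.4 and 137 in virgin cells, 22.8 and 13.8 in dorsal and 4.61 and 9.89 in ventral cells at 16 dpc, and was at least 8.17-fold lower (adjusted p = 0.126 by limma). Malat1, a nuclear non-coding RNA, had signals of 10651 and 17029 in virgin, 5643 and 714 in 16 dpc dorsal and 1784 and 483 in 16 dpc ventral cells. Its replicate 2 arrays of 16 dpc cells, those with high 3′ to 5′ ratios, were the lowest, and its probe sets disagreed, with log2 differences from -3.30 to 0.0041. A separation of the groups by at least 1 log2 unit was seen for 17 higher and 11 lower genes. At the edge of the rule, Sgo1 was just inside on the higher side, with 149.2 on the lowest 16 dpc array and 148.6 on the higher virgin array, and Polr3f just inside on the lower side, with 569.9 on the highest 16 dpc array and 574 on the lower virgin array, while Tbata and Orm1 lay just outside.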

How the data were processed

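Basal cells of 6 samples (3 groups of 2) were measured on Affymetrix Mouse Genome 430 arrays. The deposited values are MAS5 signal intensity on a linear scale and a detection call of present, marginal or absent, made by the authors with Affymetrix Expression Console version 1 per the submitters' processing notes and scaled to a trimmed mean of 500.0. No genome build was named: it is not given in the sources used. The column headers of 16 dpc arrays name a slightly later gestation time than the labels, which were used. Signals were floored at 1 and put on the log2 scale. Of 45101 probe sets, 34945 named 1 gene in the platform annotation, 932 several and 9224 none (64 controls included), and 34741 matched the RefSeq gene table. Each gene was read from 1 probe set. The 10993 of 18193 genes with a present call on both arrays of any group were fitted in 3 groups with limma 3.58.1 (R 4.3.3, trended eBayes, residual degrees of freedom 3), and both sites were weighted equally against virgin cells. Tests were two-sided. The scripts were tested on simulated data. Promoters came from RefSeq with Python 3.11.15.

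Named genes were the genes that passed the test, non-overlapping genes of at least 2-fold by smallest p up to 12 per direction, up to 4 further members of a list by smallest p, and genes the study names. Predicted genes were not named. Members and the 44 gene lists were chosen with earlier results of these data known. Replicate numbers come from the sample titles, and arrays of one number share a header prefix. Deviations from group means correlated across genes at 0.03 (virgin and dorsal), 0.01 (virgin and ventral) and 0.45 (dorsal and ventral). The numbers were therefore not taken to pair virgin with 16 dpc samples. Dorsal and ventral arrays of one number moved together, yet the test counted all 4 arrays of 16 dpc cells as independent. With these arrays averaged by number, 3 of the 9 genes passed. Values within each number stand beside the results. These values, and bounds without each array, were added after seeing the data. The number of arrays limits the precision.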

Additional observations from a re-analysis of the deposited data

Results flagged for a closer look

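Of the 9 genes that differed between ventral and dorsal cells at 16 dpc in the same fit, 4 are named here, 3 of them because the study names them. The log2 difference of ventral minus dorsal cells was 5.45 for Tbx3, a T-box transcription factor, 2.30 for Tgm3, a transglutaminase of the cornified envelope, 2.62 for Krt2, a keratin of differentiated epidermis, and -1.60 for Rspo3. Over the shared virgin arrays, Tbx3 was -4.20 in dorsal and 1.25 in ventral cells, Tgm3 -0.74 and 1.55, and Krt2 -0.78 and 1.83, so the sites lay on opposite sides of the virgin arrays. Rspo3 was -0.32 in dorsal and -1.92 in ventral cells. The adjusted p by limma was 0.0152 for Tbx3 and Tgm3, 0.0188 for Krt2 and 0.0276 for Rspo3. Over these 4 genes and all alternatives run, the difference between sites kept its direction, and it passed the threshold in 44 and missed it in 27.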

How the results depend on the processing

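The number of genes that rose (8) or fell (1) moved with most choices. It was 3 and 0 in a fit of 2 groups, 26 and 12 with the replicate block, 3 and 1 with 16 dpc arrays averaged by number, 0 and 0 without the variance trend, with a floor of 32 or with both sites tested separately, 14 and 5 with quantile normalization, 107 and 29 with array medians set equal, 9 and 2 with a floor of 16, 10 and 5 among genes present on all 6 arrays, 1 and 0 when probe sets were averaged, and 70 and 48 without both replicate 2 arrays of 16 dpc cells. Leaving out 1 array gave 0 to 27 that rose and 0 to 46 that fell. With the replicate block the 9 genes remained among the 38, and with the average by number Socs2, Csf1r, Ikzf4, Adam8, Deptor and Abcg2 no longer passed. Non-overlapping genes (1470 higher, 929 lower) were 17 and 11 with a gap of at least 1 log2 unit, 2994 and 318 with array medians set equal, 2240 and 2127 without both replicate 2 arrays, and 1499 lower with no filter. Leaving out 1 array gave 1691 to 3392 higher and 1109 to 2519 lower. The 8 list members that passed were 16 with the block, 3 averaged, 0 without the trend or with a floor of 32, 45 with medians set equal, 1 with the mean of probe sets, 50 without both replicate 2 arrays and 0 to 22 with 1 array left out. The direction turned for Rspo3 (0.82), Esr1 (-0.075), Wnt7b (0.17), Itgb1 (-0.11) and Ptprc (-0.50) with averaged probe sets, and for Nop56 (-0.034) and Laptm5 (-0.050) without probe sets shared between genes. The cause was not tested. With 2 arrays a group and a common scaling factor, small differences were not detectable.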
